A study of Mus musculus with 14 samples.

Results

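Cux1, Cux2, Rorb, Bcl11b, Fezf2, Tbr1, Foxp2, Neurod6 and Neurod2 encode transcription factors that mark excitatory neurons of the mouse cerebral cortex and, in most cases, one or a few of its layers. The 9 genes were taken by name from the first column of the deposited table of counts per gene. All 9 were among its 23412 genes, and all 9 passed the filter on low counts in every comparison. They were measured by RNA-seq and by ribosome profiling, which reads the pieces of mRNA that lie inside ribosomes and so survive nuclease digestion (footprints), in mice without Fmr1 and in controls. Fmr1 encodes FMRP, an RNA-binding protein that associates with ribosomes and is known as a regulator of translation.

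All mice carried Rpl22flox/flox and CamKCre+, so the controls had the same floxed ribosomal protein gene and the same Cre driver as the other group. The controls were Rpl22flox/flox;CamKCre+ and the knock-outs (KO) were Fmr1X-Y; Rpl22flox/flox;CamKCre+. CaMKIIa regulatory sequence is known to direct Cre to forebrain excitatory neurons, and recombination of this allele tags their ribosomes. The protocols name digested lysates, a sucrose gradient and total RNA, and name no pull-down of tagged ribosomes, so the values are treated as those of whole cortex. RNA-seq had 4 control mice (1, 3, 6 and 8) and 4 KO mice (2, 4, 5 and 7), and ribosome profiling had 3 control mice (1, 3 and 9) and 3 KO mice (2, 4 and 10). Mice 1 to 4 were in both assays. The labels used here give no age.

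During development, excitatory neurons born in order from deep to upper layers take on fates that depend on transcription factors which repress one another. Fezf2 and Bcl11b (CTIP2) act in layer 5 neurons that project below the cortex, Tbr1 acts in layer 6 neurons that project to the thalamus, and Cux1 and Cux2 act in the upper layers on dendrites and synapses. Rorb acts in layer 4, which receives thalamic input. Foxp2 marks layer 6 in the cortex and is also expressed in the striatum and thalamus. Neurod2 and Neurod6 are basic helix-loop-helix (bHLH) activators of excitatory neurons across the layers, and their family binds E-boxes, the short motif CANNTG.

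Neurod6 and Neurod2 are the related pair whose footprints were higher in every KO library than in every control library. The same held for 18.1% of all genes. The footprint difference passed the test for Neurod6 and not for Neurod2. Neither gene passed in RNA or in footprints relative to RNA. Their upstream sequences are shown here so that the E-box letters can be seen. The sequences are the 250 bases before the annotated start in RefSeq (GRCm38.p6), printed 5′ to 3′ on the gene's own strand, which is the minus strand for both. The Neurod6 window is chr6:55681264-55681513 and the Neurod2 window is chr11:98329646-98329895. Capitals mark each CANNTG, which reads the same on both strands in its fixed letters.

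Neurod6: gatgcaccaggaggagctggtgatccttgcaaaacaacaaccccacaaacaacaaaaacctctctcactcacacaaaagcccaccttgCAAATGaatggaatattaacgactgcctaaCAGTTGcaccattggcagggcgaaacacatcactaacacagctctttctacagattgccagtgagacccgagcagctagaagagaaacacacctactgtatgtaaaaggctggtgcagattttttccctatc
Neurod2: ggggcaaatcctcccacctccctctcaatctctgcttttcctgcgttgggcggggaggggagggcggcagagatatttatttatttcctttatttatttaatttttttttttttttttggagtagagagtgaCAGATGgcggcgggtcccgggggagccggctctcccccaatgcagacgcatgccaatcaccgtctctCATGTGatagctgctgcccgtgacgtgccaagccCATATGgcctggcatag

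The Neurod6 window held 2 E-boxes and the Neurod2 window held 3. Among 32851 windows of the same length in RefSeq, 66.2% held at least 1 CANNTG, 31.8% held at least as many as Neurod6 and 12.2% held at least as many as Neurod2. One Neurod2 E-box was CAGATG, which 14.4% of windows held on either strand and the Neurod6 window did not hold. These are matches of letters and not measured binding sites.

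Total counts were 8847547 to 11371851 per RNA library and 4124065 to 6033030 per footprint library, and the 9 genes had 177 to 1959 RNA counts and 84 to 1110 footprint counts each. Levels are CPM, counts divided by the library's total and multiplied by 1000000, scaled by the trimmed mean of M values (TMM) within each assay, and they are compared between libraries for 1 gene at a time, since no gene lengths were used. As a check of the labels, Fmr1 was at 71.4 to 90.0 CPM in control RNA and 18.1 to 23.4 in KO RNA, and at 111 to 115 in control footprints and 5.84 to 8.56 in KO footprints. The RNA libraries were uneven in likeness. Their pairwise distance was a chi-square of the counts, for genes whose pair of counts summed to 30 or more, divided by its degrees of freedom, so that counting noise alone gives about 1. KO mice 2, 4 and 7 lay 1.18 to 1.32 apart and 5.77 to 6.15 from KO mouse 5. Control mice 1 and 3 lay 2.02 apart, and control mouse 8 lay 4.11 to 12.2 from the other controls. Footprint libraries of 1 genotype lay 1.21 to 1.46 apart. The labels give each library of an assay its own mouse number, so each was counted as a sample, and whether any are repeats of 1 sample was not tested. The summed level of 12 immediate early genes, which neuronal activity induces, set the same mice apart. It was 301 to 306 CPM in 3 controls and 609 in control mouse 8, and 1160 to 1210 in 3 KO mice and 537 in KO mouse 5. Choroid plexus genes summed to 281 CPM in control mouse 8 and 119 in KO mouse 5, against 6.54 to 20.0 in the other RNA libraries. In footprints they summed to 12.5 to 14.4 in controls and 5.71 to 11.2 in KO, and 1 of 3 tested (Ttr) was called lower.

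Markers of neighbouring brain regions and of oligodendrocytes also differed between the genotypes. Of all genes, edgeR called (adjusted p under 0.05) 25.7% in footprints, 13.7% lower and the rest higher, and 7.51% in RNA, 3.94% lower and 3.58% higher. In footprints, striatal genes summed to 1420 to 1460 CPM in controls and 1590 to 1650 in KO, with 6 of 10 called higher and 1 lower. Penk alone was at 536 to 559 in controls and 659 to 697 in KO. Thalamic genes summed to 202 to 219 and 169 to 184, with 3 of 7 called lower, and 9 hypothalamic genes to 151 to 161 and 65.4 to 72.0, with all 7 that were tested called lower. In RNA, thalamic genes summed to 149 to 151 CPM in controls and 127 to 145 in KO, with 1 of 7 called lower, and hypothalamic genes to 61.1 to 94.0 and 32.3 to 36.1, with 5 of the 8 tested called lower. Oligodendrocyte genes summed to 5110 to 5610 in RNA of controls and 4500 to 4840 in KO, with 1 of 8 called lower, and to 8720 to 8880 and 8560 to 8590 in footprints, with 3 called lower and 2 higher. Genes of the hippocampal list, which holds Wfs1, summed to 306 to 316 CPM in control footprints and 224 to 238 in KO. In RNA they summed to 205 to 216 and 171 to 195. Wfs1, which is also on the upper layer list used below, made most of this fall. It was at 211 to 227 and 137 to 149 in footprints, and at 105 to 115 and 79.1 to 95.1 in RNA. The RNA sums of striatal genes overlapped, and 0 of the 10 genes were called in RNA. Of the marker genes of these regions in the table, only Agrp was at 0 in every library of a group, the KO footprints. The part of these differences in the results below was not tested. The layer and excitatory neuron lists had no gene at 0 throughout a group in either assay. In whole cortex, fewer cells of a type and less RNA per cell cannot be told apart.

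In RNA, 1 of the 9 transcription factors passed the test between genotypes, where 7.51% of 13507 genes did. Calls are genes with an adjusted p under 0.05 in edgeR's quasi-likelihood test, and 3.58% of all genes were called higher in KO and 3.94% lower. Only Foxp2 rose. The median difference over the 9 genes was 0.12 on the log2 scale, against -0.00102 over all genes tested, and 7 of the 9 were positive. KO and control libraries did not overlap for 2 of the 9 genes (Cux2 and Rorb, both above controls), where 15.1% of all genes did not overlap.

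In footprints, 4 of the 9 passed, where 25.7% of 12158 genes did. Foxp2 and Neurod6 rose, Bcl11b and Cux2 fell, where 13.7% of all genes were called lower and the rest of the calls were higher. Libraries of the genotypes did not overlap for 6 of the 9, against 37.3% of all genes. Foxp2, Neurod6, Neurod2 and Rorb lay above the controls, and Bcl11b and Tbr1 lay below, Tbr1 only with TMM scaling. The summed footprint level of the 9 genes was 629 to 650 CPM in controls and 635 to 642 in KO, so the sums overlapped while single genes rose and fell.

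**Figure D1:**
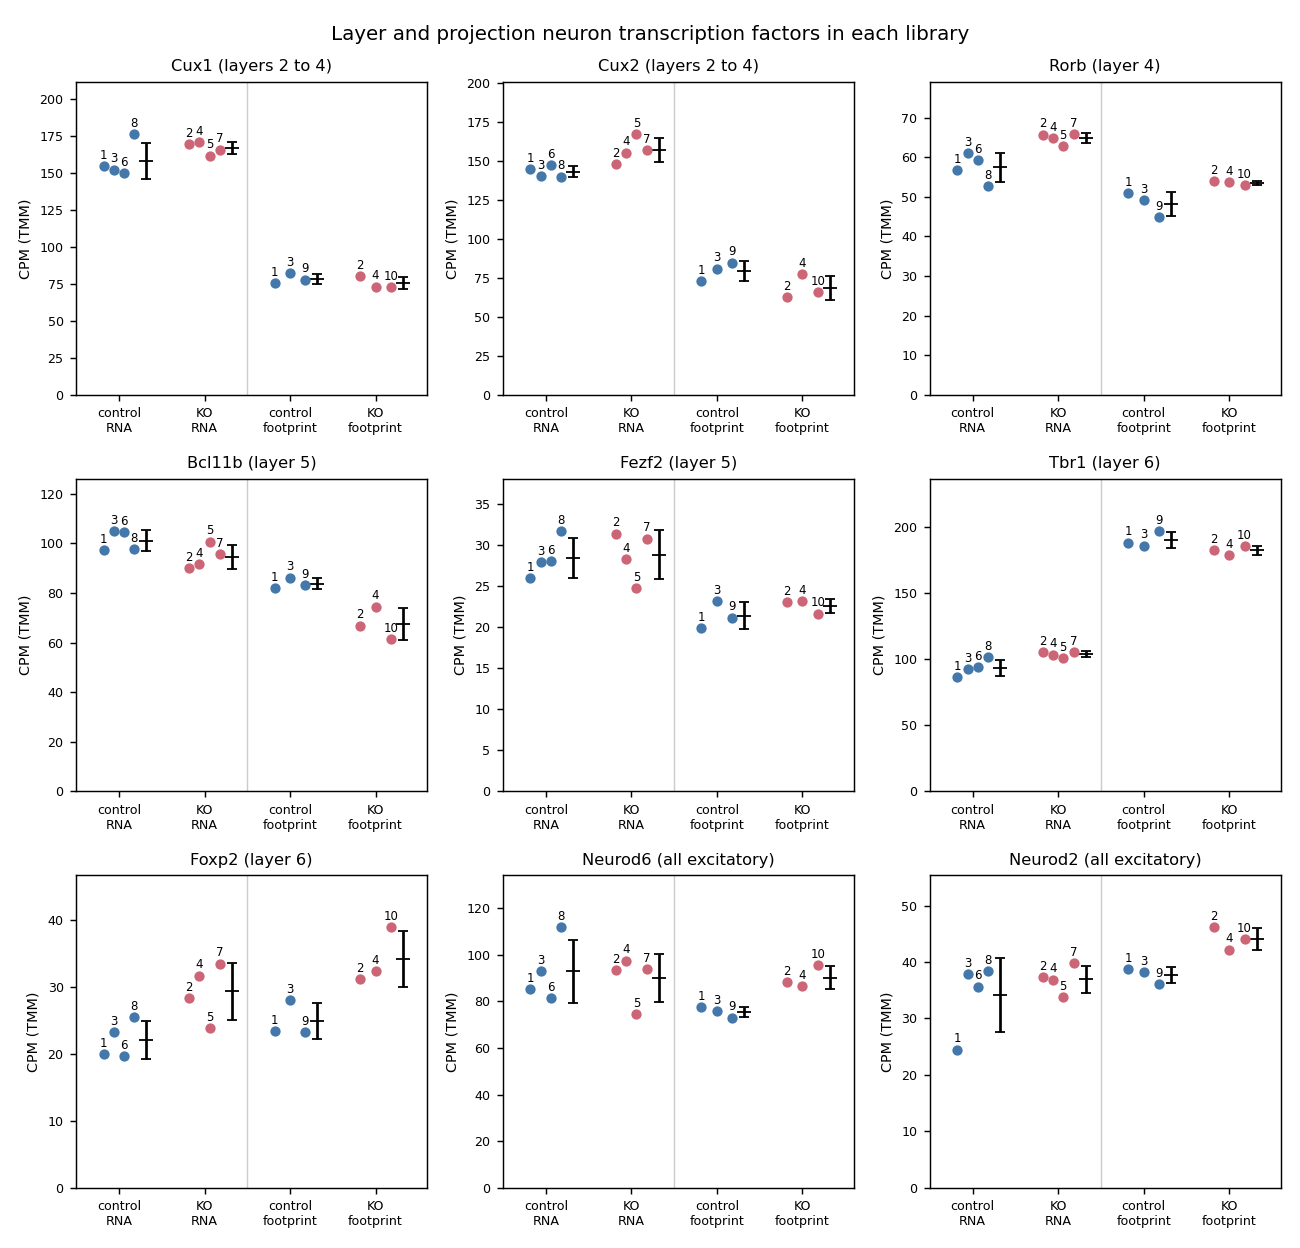
CPM (TMM scaled, linear axes from 0) of each transcription factor in every library, with control mice in blue, KO mice in red, mouse numbers above the points, and the mean ± SD of each group in black. Foxp2 footprints were 23.3 to 28.0 in controls and 31.1 to 38.8 in KO, and Bcl11b footprints were 81.8 to 86.2 and 61.5 to 74.5.

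Footprints relative to RNA, called translational efficiency (TE) here, were tested as the interaction of genotype and assay over all 14 libraries. Cux2 was the 1 gene of the 9 that passed, where 7.43% of 12145 genes did and 4.24% were called lower in KO. The median TE difference of the 9 was -0.03 on the log2 scale, with 5 genes negative and 4 positive, and it was -0.0108 over all genes. On simulated data the TE test recovered 48.5% of 1.5-fold changes, so a gene without a TE call may still differ.

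**Figure D2:**
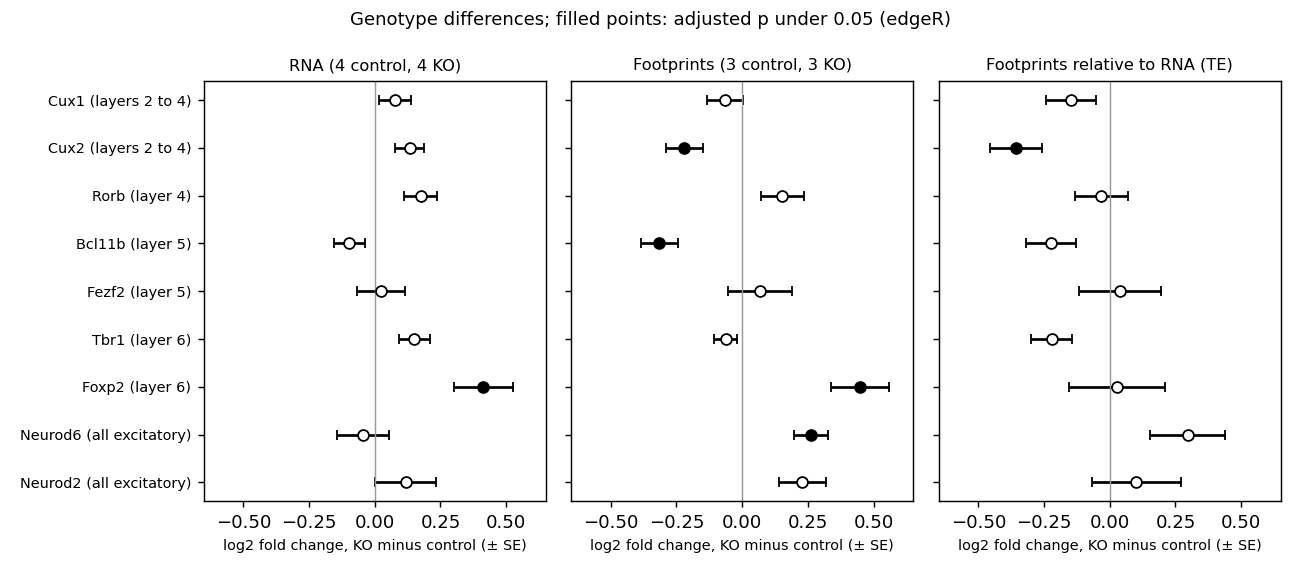
log2 fold change of KO against control (points) with its standard error (bars) in RNA, footprints and TE, filled where the adjusted p was under 0.05 in edgeR. Foxp2 was 0.41 in RNA and 0.45 in footprints, while Cux2 was 0.13 in RNA and -0.22 in footprints.

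Among the upper layer genes, Cux2 had more RNA and fewer footprints in KO mice on average, and only the footprint and TE differences passed the test. Cux2 encodes a CUT homeodomain factor of layers 2 to 4 that is known to act on dendritic branching and spines. In RNA it was at 144, 140, 147 and 140 CPM in control mice 1, 3, 6 and 8 and at 148, 155, 167 and 157 in KO mice 2, 4, 5 and 7. The lowest KO library was just above the highest control. The RNA difference was 0.13 ± 0.054 (log2, SE; adjusted p = 0.150, edgeR).

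Cux2 footprints were at 72.6, 80.9 and 84.7 CPM in control mice 1, 3 and 9 and at 62.8, 77.2 and 65.9 in KO mice 2, 4 and 10. KO mouse 4 lay within the controls. Library titles share a prefix within mice 1 and 2, 3 and 4, and 9 and 10, and the KO mouse was lower in each pair. The meaning of the prefix is not given in the sources used here. Footprints fell by 0.22 ± 0.071 on the log2 scale to 85.9% of control (adjusted p = 0.0144, edgeR). Leaving out KO mouse 2 ended the call (adjusted p = 0.137), as did leaving out control mouse 9 (0.0901) or KO mouse 10 (0.0900). DESeq2 (0.115), plain library sizes (0.0819) and 1 fit over all 14 libraries (0.0823) did so too.

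Cux2 TE fell by 0.36 ± 0.099 (log2; adjusted p = 0.0316, edgeR). The footprint to RNA ratio was taken in the 4 mice with both assays. It was 0.503 and 0.577 in control mice 1 and 3 and 0.424 and 0.497 in KO mice 2 and 4. Control mouse 1 and KO mouse 4, the nearest, differed by little. Within mice 1 and 2 and within mice 3 and 4, which share title prefixes, the KO mouse was lower. With the mouse as a block over those 4 mice, the change was -0.25 and the call was lost (adjusted p = 0.0805, edgeR). It was also lost without mouse 2 (0.121), 3 (0.102), 7 (0.0524), 9 (0.107) or 10 (0.103), with plain library sizes (0.0688) and with the most alike RNA libraries summed (0.0655).

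Cux1, the paralog of Cux2, also lies in layers 2 to 4, and its gene yields a Golgi protein (CASP) without the homeodomain that counts per gene cannot separate. Its RNA was at 155, 152, 150 and 176 CPM in control mice 1, 3, 6 and 8 and at 169, 171, 162 and 166 in KO mice 2, 4, 5 and 7. Control mouse 8 was above every other library, and the groups overlapped. The differences were 0.08 ± 0.060 in RNA (adjusted p = 0.477), -0.07 ± 0.068 in footprints (0.523) and -0.15 ± 0.095 in TE (0.387), all log2 and edgeR. In RNA of mice 1 to 4 alone Cux1 was called higher, at 0.16 (adjusted p = 0.0187, edgeR).

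Rorb, a retinoid-related orphan receptor of layer 4, was above the controls in every KO library of both assays without passing either test. Its RNA was at 56.7, 61.1, 59.2 and 52.7 CPM in control mice 1, 3, 6 and 8 and at 65.7, 64.8, 62.9 and 65.8 in KO mice 2, 4, 5 and 7. Its footprints were at 50.9, 49.1 and 44.9 in control mice 1, 3 and 9 and at 54.0, 53.6 and 52.9 in KO mice 2, 4 and 10. The KO libraries were close together and the controls more spread. The log2 differences were 0.18 ± 0.063 in RNA (adjusted p = 0.1004) and 0.15 ± 0.082 in footprints (0.173, edgeR). Rorb passed in RNA in 1 fit over all libraries (0.0388) and in footprints with plain library sizes (0.0423), and in the exon columns its RNA difference was 0.05 with overlapping groups.

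Among the layer 5 genes, Bcl11b footprints fell and Fezf2 did not pass any test. Bcl11b, a zinc finger factor required for corticospinal axons, had footprints of 81.8, 86.2 and 83.3 CPM in control mice 1, 3 and 9 and of 66.8, 74.5 and 61.5 in KO mice 2, 4 and 10. Every KO library was below every control. Footprints fell by 0.31 ± 0.069 on the log2 scale to 80.4% of control (adjusted p = 0.000185, edgeR). The call held under all 12 alternatives tried, at -0.39 to -0.25 with a highest adjusted p of 0.0137.

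Bcl11b RNA was at 97.3, 105, 105 and 97.6 CPM in control mice 1, 3, 6 and 8 and at 90.2, 91.7, 101 and 95.8 in KO mice 2, 4, 5 and 7. The groups overlapped through KO mouse 5, and the difference was -0.10 ± 0.059 (log2; adjusted p = 0.344, edgeR). TE differed by -0.22 ± 0.096 (adjusted p = 0.169), so a footprint change beyond that of RNA was not shown. Bcl11b is also expressed in striatal projection neurons and in cortical interneurons. Summed footprints of 10 striatal genes were higher in KO, as given above, and those of 14 inhibitory neuron genes were 2430 to 2470 CPM in controls and 2520 to 2550 in KO, with 4 called higher and 2 lower, where 25.7% of all genes were called.

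Fezf2, the zinc finger factor that specifies corticospinal neurons upstream of Bcl11b, had RNA of 25.9 to 31.7 CPM in controls and 24.8 to 31.4 in KO, and footprints of 19.9 to 23.1 and 21.6 to 23.1. The groups overlapped in both assays. The log2 differences were 0.02 ± 0.091 in RNA (adjusted p = 0.910), 0.07 ± 0.12 in footprints (0.744) and 0.04 ± 0.16 in TE (0.914, edgeR).

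Foxp2 had the largest differences of the 9 genes in both assays and was the only one called in both. It encodes a forkhead repressor. Its RNA was at 20.0, 23.2, 19.6 and 25.4 CPM in control mice 1, 3, 6 and 8 and at 28.3, 31.6, 23.8 and 33.4 in KO mice 2, 4, 5 and 7. Control mouse 8 was the highest control and KO mouse 5 the lowest KO, and these 2 libraries made the groups overlap. RNA rose by 0.41 ± 0.11 (log2), to 133% of control (adjusted p = 0.0387, edgeR). The same 2 mice were the controls' highest and the KO mice's lowest in summed immediate early genes, of which 11 of 12 were called higher in RNA, where 3.58% of all genes were, and 12 of 12 in footprints, where 25.7% were called in either direction. The part of this in the Foxp2 difference was not tested.

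The Foxp2 RNA call was lost without mouse 1 (adjusted p = 0.105), 2 (0.0839), 3 (0.0590), 4 (0.127), 6 (0.119) or 7 (0.134) and held without mouse 5 or 8. Summing KO mice 2, 4 and 7 to 1 library also ended the call (0.260), as did summing control mice 1 and 3 besides (0.376) and using mice 5 to 8 alone (0.393), where the log2 difference was 0.35. The exon columns of the table gave a smaller rise of 0.26 ± 0.063 (adjusted p = 0.0235, edgeR). There the libraries were 41.2 to 46.5 CPM in controls and 48.0 to 56.3 in KO and did not overlap.

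Foxp2 footprints were at 23.4, 28.0 and 23.3 CPM in control mice 1, 3 and 9 and at 31.1, 32.3 and 38.8 in KO mice 2, 4 and 10. Every KO library was above every control. Footprints rose by 0.45 ± 0.11 (log2), to 137% of control (adjusted p = 0.000845, edgeR), and the call was lost only in 1 fit over all 14 libraries (0.0520). The TE difference was 0.03 ± 0.18 (log2; adjusted p = 0.949, edgeR). Foxp2 is a gene of the striatum and thalamus too, and in footprints the striatal sum was higher and the thalamic sum lower in KO. In RNA, where Foxp2 was also called, 0 of 10 striatal genes were.

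Tbr1, a T-box factor of layer 6, had the highest ratio of footprints to RNA of the 9 genes and differences of opposite sign in the 2 assays, neither of them called. Its RNA was at 86.6, 92.6, 93.8 and 101 CPM in control mice 1, 3, 6 and 8 and at 105, 103, 101 and 106 in KO mice 2, 4, 5 and 7. Its footprints were at 188, 186 and 197 in control mice 1, 3 and 9 and at 183, 179 and 186 in KO mice 2, 4 and 10. Footprints of KO lay below all controls by under 1 CPM, while RNA overlapped. Without TMM scaling the footprints overlapped too, at 181 to 193 CPM in controls and 182 to 189 in KO. The log2 differences were 0.15 ± 0.059 in RNA (adjusted p = 0.136) and -0.06 ± 0.044 in footprints (0.327, edgeR). RNA was called higher without control mouse 8 (0.19, adjusted p = 0.0310), in mice 1 to 4 alone (0.23, adjusted p = 0.00561) and in 1 fit over all libraries (0.16, adjusted p = 0.0466).

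Tbr1 TE differed by -0.22 ± 0.079 (log2; adjusted p = 0.0920, edgeR). With the mouse as a block, a fit that called 15.4% of all genes, it was called lower, at -0.28 (adjusted p = 0.00852), as it was without control mouse 8 (-0.26, adjusted p = 0.0224). The ratio was 2.17 and 2.01 in control mice 1 and 3 and 1.73 and 1.73 in KO mice 2 and 4. So Tbr1 and Cux2 exchanged places as the called gene between the fit over all libraries and the fit within mice.

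Over all controls, the Tbr1 ratio of 2.03 was above that of 93.3% of the 12145 genes with both assays, whose median was 0.913. Cux1 and Cux2 were at 0.496 and 0.556, above 18.1% and 22.3% of genes. Rorb, Bcl11b, Fezf2 and Neurod6 lay between 0.753 and 0.841, and Foxp2 and Neurod2 at 1.13 and 1.11. A ratio within a library pair depends on the region each assay counted, which is not given in the sources used here, so these values describe the columns and not absolute ribosome loading.

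**Figure D3:**
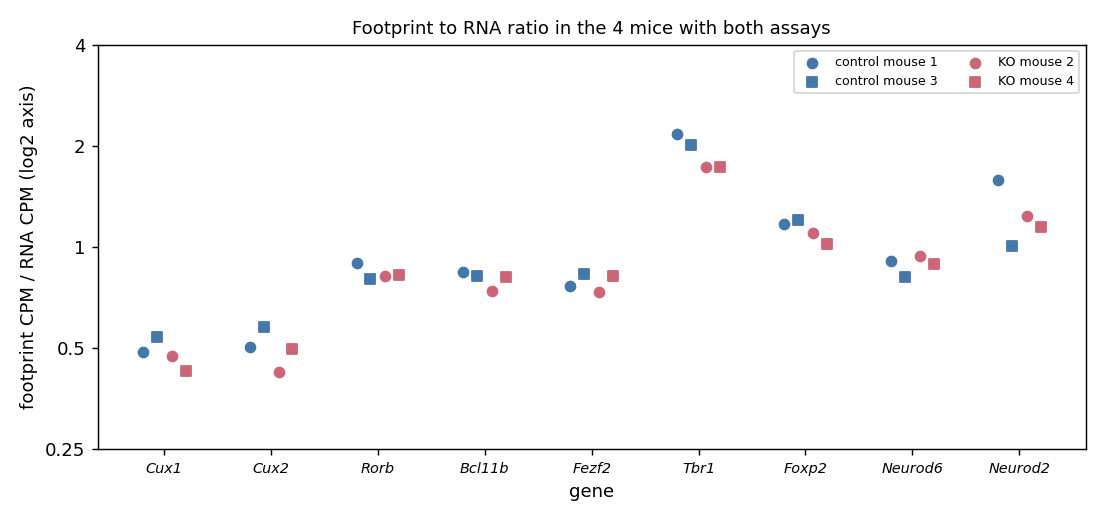
Footprint CPM divided by RNA CPM (log2 axis) for each gene in control mice 1 and 3 (blue) and KO mice 2 and 4 (red), the 4 mice with both assays. Tbr1 was at 2.17 and 2.01 in controls and 1.73 in both KO mice, and Cux2 at 0.503 and 0.577 against 0.424 and 0.497.

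Of the bHLH pair whose upstream sequences are printed above, Neurod6 rose in footprints and Neurod2 missed the threshold. Neurod6 footprints were at 77.6, 75.8 and 73.0 CPM in control mice 1, 3 and 9 and at 88.2, 86.6 and 95.7 in KO mice 2, 4 and 10. Every KO library was above every control. Footprints rose by 0.26 ± 0.065 (log2), to 120% of control (adjusted p = 0.000986, edgeR), and the call was lost only in 1 fit over all 14 libraries (0.157).

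Neurod6 RNA was at 85.4, 92.9, 81.5 and 112 CPM in control mice 1, 3, 6 and 8 and at 93.5, 97.4, 74.7 and 94.0 in KO mice 2, 4, 5 and 7. Control mouse 8 was the highest library and KO mouse 5 the lowest. The RNA difference was -0.05 ± 0.099 (log2; adjusted p = 0.828, edgeR) and turned to 0.03 without KO mouse 5, 0.06 without control mouse 8 and 0.11 in mice 1 to 4 alone. TE differed by 0.30 ± 0.14 (adjusted p = 0.225), so a footprint change apart from RNA was not shown.

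Neurod2 footprints were at 38.8, 38.2 and 36.1 CPM in control mice 1, 3 and 9 and at 46.1, 42.2 and 44.1 in KO mice 2, 4 and 10, again with every KO library above the controls. The difference was 0.23 ± 0.091 (log2; adjusted p = 0.0522, edgeR), and it passed with plain library sizes (0.29, adjusted p = 0.0108). Its RNA was at 24.5, 37.9, 35.6 and 38.4 in control mice 1, 3, 6 and 8 and at 37.3, 36.9, 33.8 and 39.8 in KO mice 2, 4, 5 and 7. Control mouse 1 stood below all other libraries, and without it the RNA difference went from 0.12 ± 0.12 (adjusted p = 0.586, edgeR) to -0.01. TE differed by 0.10 ± 0.17 (adjusted p = 0.773).

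In no layer that held a pair of these genes were both called in footprints. Layer 6 held Foxp2, which rose in both assays, and Tbr1, which was not called in either. The layer 5 and upper layer pairs each held 1 gene whose footprints fell, Bcl11b and Cux2, beside 1 that was not called, Fezf2 and Cux1. A difference between the members of each pair was not tested.

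Other known layer markers were taken from lists and set beside these genes. The lists were chosen with earlier results of these data known. Their counts beside the shares of all genes are therefore descriptions and not independent tests. Of 13 other upper layer markers, footprints of 7 fell, against 13.7% of all genes, and of 0 rose, and 12 of the 13 differences were negative with a median of -0.22 (log2), against 0.00605 over all genes. Otof, which encodes otoferlin, fell by 1.15 ± 0.11, from 38.4 to 40.4 CPM in controls to 16.4 to 18.3 in KO (adjusted p = 8.93e-15, edgeR). Mdga1, which encodes an adhesion protein of the cell surface, fell by 0.70 ± 0.14, from 19.9 to 22.2 CPM to 11.9 to 14.3 (adjusted p = 6.55e-05). The other 5 were Wfs1, Plxnd1, Unc5d, Rasgrf2 and Calb1. Between 5 and 7 of the 13 were called lower under each of the 12 alternatives, and 0 were called higher, with 0 at an unadjusted p under 0.05 in that direction (edgeR).

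Beside this list, Cux1 footprints differed by -0.07 without a call and Cux2 footprints fell by 0.22. In RNA, 3 of the 13 fell (Otof by 0.53, Wfs1 by 0.40 and Unc5d by 0.30, log2), where 3.94% of all genes did. With KO mice 2, 4 and 7 summed, or in mice 5 to 8 alone, 0 fell. In the main fit 0 were called higher in RNA, and 0 to 2 were over the 19 alternatives. In TE, 2 fell (Otof by 0.63 and Plxnd1, a semaphorin receptor, by 0.44), where 4.24% of all genes did, and all 13 differences were negative. With the mouse as a block 5 fell, where 8.7% of all genes did. Without KO mouse 2 or 4, 1 fell in TE.

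Wfs1, which encodes an endoplasmic reticulum protein, and Calb1, a calcium-binding protein, also mark hippocampal neurons, and both fell in footprints. Of 5 tested genes of the hippocampal list, which does not hold Calb1, Wfs1 was called in footprints, where it fell by 0.63 ± 0.046 from 211 to 227 CPM in controls to 137 to 149 in KO (adjusted p = 1.92e-21, edgeR), and the other 4 were not called. The summed level of this list was lower in KO in both assays, as given above, and most of that fall was Wfs1 itself. In footprints the list mean was 311 CPM in controls and 231 in KO, and Wfs1 alone was at 220 and 142. In RNA the list means were 209 and 179, and those of Wfs1 were 111 and 84.4. Wfs1 is on both lists, so the sum is not separate from the upper layer markers. A hippocampal part in their fall was not tested.

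**Figure D4:**
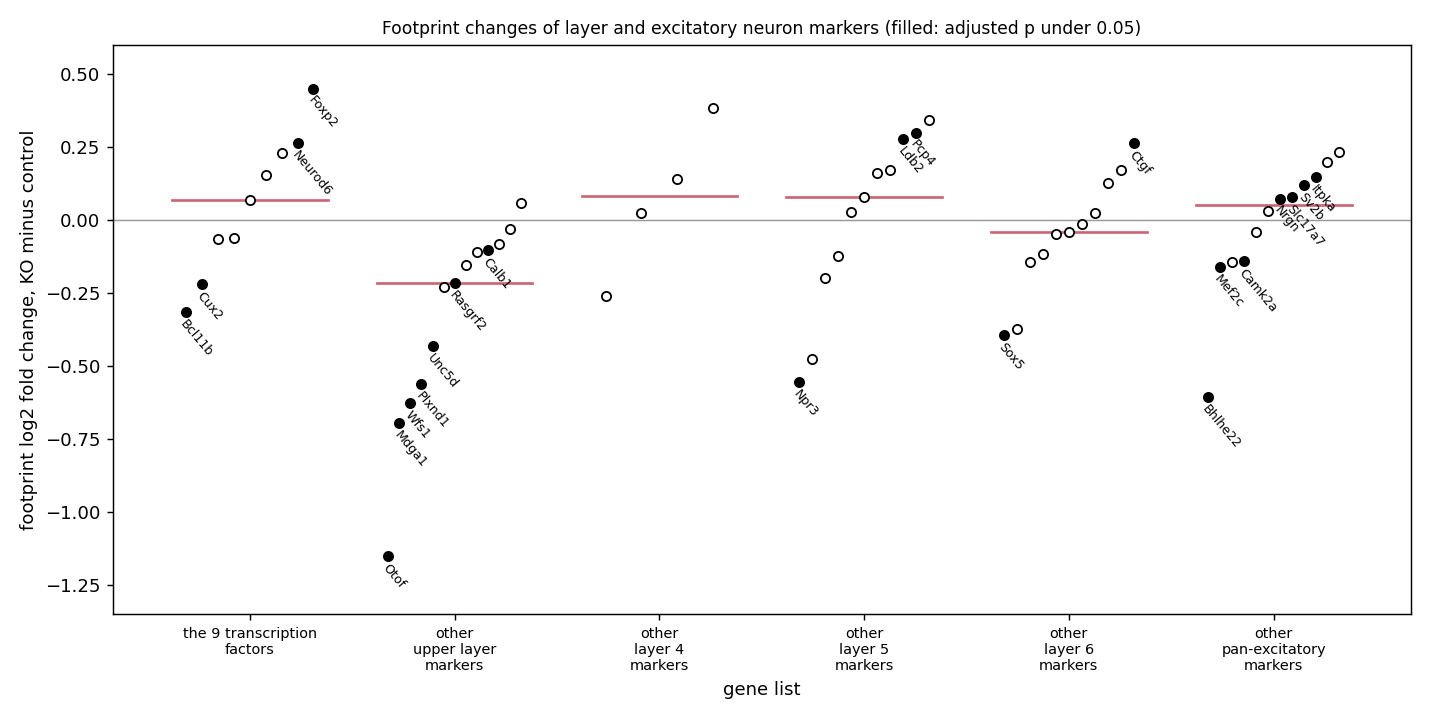
Footprint log2 fold change of KO against control for the 9 transcription factors and for other markers by list, with genes named and filled where the adjusted p was under 0.05 in edgeR and red lines at each list's median. The upper layer list has 7 filled points, all below 0, with a median of -0.22, and the other lists have filled points on both sides or none.

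In footprints, the layer 5 and layer 6 lists had calls in both directions and the layer 4 list had none. Of 11 other layer 5 markers, footprints of Pcp4 and Ldb2 rose and those of Npr3 fell, a share near the 25.7% of all genes called. Pcp4, a calmodulin regulator, fell by 0.25 ± 0.054 in RNA (adjusted p = 0.0127), rose by 0.30 ± 0.029 in footprints (8.99e-15) and rose by 0.55 ± 0.067 in TE (3.29e-05, edgeR). Its RNA was 238 to 264 CPM in controls and 198 to 218 in KO, and its footprints were 450 to 456 and 551 to 568. The RNA call was lost in 5 of 19 alternatives (without KO mouse 2 or 4, with libraries summed either way and in mice 5 to 8 alone), at adjusted p of up to 0.319, and the footprint and TE calls held under all alternatives tried. Ldb2, a LIM-domain cofactor, rose by 0.28 in footprints and lost its call with DESeq2, without KO mouse 4 or in 1 fit over all libraries, where 1 gene of the list was called higher. Npr3, a natriuretic peptide receptor, fell by 0.55 and was not called with DESeq2 or without mouse 2, 3 or 4.

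Of 11 other layer 6 markers, Ctgf rose in RNA by 0.37 ± 0.076 and in footprints by 0.26 ± 0.067 (adjusted p = 0.0112 and 0.00128, edgeR). The RNA call was lost with KO mice 2, 4 and 7 summed and with control mice 1 and 3 summed too. It was also lost in mice 5 to 8 alone, and adjusted p was up to 0.226. Over the 19 alternatives, 0 to 4 genes of the list were called higher in RNA, against 1 in the main fit. Sox5, a repressor that acts in deep-layer fate beside Tbr1, fell in footprints by 0.40 ± 0.090 (adjusted p = 0.000314), from 46.6 to 54.0 CPM in controls to 34.4 to 41.5 in KO. Cplx3, a complexin, fell in RNA by 0.39 (adjusted p = 0.0261), a call lost in 9 of 19 alternatives, among them those without mouse 3, 4, 6 or 7 and the exon columns, where the difference was -0.14 (adjusted p = 0.480, edgeR). Of other layer 4 markers, 0 of 5 in RNA and 0 of 4 in footprints were called by edgeR or DESeq2, and 1 in RNA and 0 in footprints had an unadjusted p under 0.05. With 7.51% and 25.7% of all genes called, lists of this size with no call are near the background, and some alternatives called 1 layer 4 gene higher in RNA or 1 lower in TE.

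Among 12 other markers of excitatory neurons in general, footprints of 4 rose (Slc17a7, Nrgn, Sv2b and Itpka) and of 3 fell (Camk2a, Bhlhe22 and Mef2c), where 25.7% of all genes were called. The Itpka call (adjusted p = 0.0495, edgeR) held in 4 of 12 alternatives, with adjusted p up to 0.268. Bhlhe22, a bHLH factor like Neurod6 and Neurod2, fell by 0.61 ± 0.13, from 22.5 to 25.8 CPM in controls to 12.4 to 18.5 in KO (adjusted p = 0.000200, edgeR). Of the bHLH genes, Neurod6 thus rose and Bhlhe22 fell in footprints. Mef2c, a MADS-box factor of synapse number, fell by 0.16 ± 0.025 (1.06e-07), and by 0.10 with plain library sizes. Sv2b, a synaptic vesicle protein, rose by 0.12 ± 0.028 (0.000419). The count called higher was 2 with DESeq2, without control mouse 1 or 3, was 1 without KO mouse 4, and was 0 in 1 fit over all libraries.

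Camk2a encodes the kinase whose regulatory sequence names the Cre driver of both groups. Its RNA rose by 0.75 ± 0.099 (log2), from 411 to 552 CPM in controls to 718 to 951 in KO (adjusted p = 0.000739, edgeR). Its footprints fell by 0.14 ± 0.019, and its TE fell by 0.90 ± 0.12 (adjusted p = 7.29e-05). In the exon columns both calls held with smaller changes, of 0.40 in RNA and -0.53 in TE. Slc17a7, the vesicular glutamate transporter of cortical excitatory neurons, rose by 0.20 ± 0.053 in RNA (adjusted p = 0.0366), a call that was lost in 10 of 19 alternatives, among them those without mouse 1, 2, 3, 4, 6 or 7, in each of which 1 gene of the list was called higher in RNA. Of 12 paralogs of the 9 genes, among them Foxp1, Neurod1 and Rora, 6 were tested in RNA and 5 in footprints, and 0 were called in RNA, footprints or TE by edgeR or DESeq2, with 1, 1 and 2 at an unadjusted p under 0.05. At shares of 7.51%, 25.7% and 7.43% over all genes, so few genes with no call are near the background.

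The genes most like each transcription factor were found by the root mean square difference in log2 CPM, centred within each assay, over the 14 libraries. The likeness includes the genotype difference and shared libraries, and it is a description. For Foxp2 the nearest of 12144 genes were Mcl1 (0.123) and Midn (0.127), and the median distance to all genes was 0.302. Mcl1 and Midn had footprint differences of 0.36 and 0.40 beside the 0.45 of Foxp2. For Bcl11b they were Slc44a1 (0.0522) and Zfp651 (0.0562), for Cux2 Creg2 (0.0568) and Adar (0.0595), and for Neurod6 Lrrc28 (0.0726) and Cd320 (0.0730).

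The remaining genes had Lphn1 and Gabbr2 nearest to Cux1, Ube2q2 and Wdr82 to Rorb, Papd7 and Fads2 to Fezf2, Stk25 and Dennd4b to Tbr1, and Rlbp1 and Tpbg to Neurod2, at distances of 0.0385 to 0.0864. Among the 9 genes themselves, Cux1 and Tbr1 were the closest pair, at 0.0637, with 0.445% of genes nearer to Cux1 than Tbr1 was. Bcl11b and Foxp2 were the farthest, at 0.368, with 93.4% of genes nearer. Neurod2 and Neurod6 were 0.156 apart, with 4.20% of genes nearer to Neurod2.

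Some counts cannot be assigned to 1 gene with certainty. In the RefSeq table, Cux1, Cux2 and Foxp2 overlap other entries (long noncoding RNAs at Cux1 and Cux2, a microRNA at Cux1 and a pseudogene at Foxp2), the other 6 overlap none, and the strand setting of the counts is not given in the sources used here. The columns without a suffix held 23.7 to 32.5% of the exon column's Foxp2 count in controls and 26.9 to 33.9% in KO, and for Rorb 16.0 to 16.6% and 16.1 to 19.1%.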

How the data were processed

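The 9 genes and all marker lists were chosen with earlier results of these data known. Counts per gene (whole numbers, not normalized) are as the authors deposited them, in a column per library and a further exon column per RNA library. Bowtie2, STAR 2.5, featureCounts, Subread 1.4.6 and the builds mm9 and mm10 are listed, without roles, in the submitters' processing notes; the region and strand counted are not given in the sources used here.

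Genotypes were compared with edgeR 4.0.16 (R 4.3.3): TMM, filterByExpr at a minimum count of 10, quasi-likelihood F tests, two-sided, Benjamini-Hochberg adjustment over all genes tested, threshold 0.05. RNA and footprints were fitted apart, and TE as the interaction over 14 libraries, with steps tested on simulated data. There, 1.5-fold changes were recovered for 82.8% of the changed genes in RNA, 80.6% in footprints and 48.5% in TE. Standard errors are the fold change divided by the root of F. DESeq2 1.42.0, other scalings, no filter, blocks, exon columns and omitted or summed libraries were alternatives. Beside the 9 genes, at most 2 called genes per list, assay and direction, of at least 1 CPM, were to be named with values. Others are named where a count of them is given. RNA values are from the columns with no suffix, which hold values for the genes that the footprint columns hold.

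Mice 1 to 4 pair both assays by label. Their deviations from group means correlated at -0.0133 to 0.0341 across genes.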

Additional observations from a re-analysis of the deposited data

Results flagged for a closer look

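Of 60 groups of 4 RNA libraries examined (a gene and a measure each), 4 held a library that stood far from the other 3, and chance gives about 1 in 20 such groups. Cux1 was at 176 CPM in control mouse 8, against 150 to 155 in the other controls. In the exon columns, Rorb was at 211 CPM in KO mouse 5, against 191 to 193, and Neurod6 at 63.4 CPM in KO mouse 5, against 76.0 to 78.0. The Neurod2 count of control mouse 1 was 29.1% of its exon count, against 33.9 to 34.5% in the other controls.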

How the results depend on the processing

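The RNA comparison depended most on which libraries entered it. It called 1015 genes, 372 to 1791 with a mouse left out, 85 with KO mice 2, 4 and 7 summed, 36 with control mice 1 and 3 summed as well, 57 in mice 5 to 8 alone, 3284 in mice 1 to 4 alone and 1896 in 1 fit over all libraries. Of the 9 genes it called 0 to 2 with a mouse left out, 0 with libraries summed either way, 0 in mice 5 to 8, and 3 in mice 1 to 4 or in 1 fit. Footprints called 3122 genes, 1821 with DESeq2 and 1531 in 1 fit, which left 1 of the 9 (Bcl11b) called. With plain library sizes, 66.3% of footprint calls were higher in KO against 46.8% with TMM, the median of all genes moved from 0.00605 to 0.0655, and 67.9% of TE calls were higher against 42.9%. TE called 902 genes, 381 to 1230 with a mouse left out, 1870 with the mouse as a replicate block and 516 with RNA libraries summed. Of the 9 genes it called 0 to 2 with a mouse left out and 0 with plain library sizes or RNA libraries summed. The block called 1 of the 9, Tbr1 in place of Cux2. The causes of these moves were not tested.

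Differences near 0 changed sign, none of them called. Fezf2 RNA was -0.023 with KO libraries summed, -0.043 with control libraries summed too and -0.10 in mice 5 to 8. Neurod6 RNA was 0.11 in mice 1 to 4 and Neurod2 RNA was -0.0063 in mice 5 to 8. Rorb TE was 0.034 with plain library sizes and 0.12 in the exon columns. Fezf2 TE was -0.0063 in the exon columns, and with the mouse as a replicate block Fezf2 TE was -0.060, Foxp2 TE -0.19 and Neurod2 TE -0.046. With a mouse left out, Fezf2 RNA ranged from -0.020 to 0.087, Neurod6 RNA from -0.10 to 0.060, Neurod2 RNA from -0.011 to 0.19, Rorb TE from -0.083 to 0.0079, Fezf2 TE from -0.022 to 0.11 and Foxp2 TE from -0.078 to 0.11.

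The 9 genes kept direction and call in 382 of 441 refits. Counting noise of the 9 genes, as a coefficient of variation, was 3.0 to 10.9% in footprints, above the common spread between libraries of 2.11%, so depth limits their footprint values. In RNA it was 2.26 to 7.52%, under the common spread of 7.7%.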
